A study of Mus musculus with 24 samples.

Results

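Rergl, Chrna2 and Ppfia2 are 3 genes that were chosen from these data because their transcripts were near the detection floor in control vessels and raised in both Prdm6-deficient vessels. They are 3 of the 54752 genes in the deposited table, and all 3 were among the 16463 genes that passed the filter on low counts and were tested. The values that chose them, Prdm6-deficient against control in each vessel, are therefore given as a description with no test. By the floor of 3 counts, the label held for Rergl, whose control libraries all held 3 counts or fewer. It did not hold for Chrna2, which had 3 counts or fewer in only 2 of 7 control DA libraries. In the aorta controls Chrna2 had 7 to 28 counts. Its mean was still below 1 CPM in the controls of each vessel, at 0.375 for the DA and 0.743 for the aorta. Nor did the label hold for Ppfia2, which was above 3 counts in all but 1 of the control libraries.

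RNA-Seq was performed at E18.5, before the ductus arteriosus (DA) closes, on this fetal vessel between the pulmonary artery and the aorta and on the ascending aorta of mice. Prdm6 is a PR domain protein of smooth muscle cells (SMC), and the comparisons ask what its deficiency changes in each vessel. Prdm6-deficient embryos were Wnt1Cre;PRDM6f/f on a C57/Black6 background, with Cre driven by the Wnt1 promoter, so that the floxed alleles are recombined in neural crest cells and their descendants, which include SMC of both vessels. The groups were 7 control DA, 5 Prdm6-deficient DA, 6 control aorta and 5 Prdm6-deficient aorta libraries. The controls carried no Cre and at most 1 floxed allele, with 1 exception: the embryo behind control DA replicate 2, which also gave control aorta replicate 3, had Wnt1Cre and wild-type PRDM6. Prdm6-deficient DA replicates 1 and 2 were pools of 2 embryos each, and the other libraries came from 1 embryo each. Several embryos gave both vessels. The embryos bore animal numbers from 2 separate runs, here named the first and second runs.

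The library totals lay between 15163951 and 22610532 counts. Prdm6 itself averaged 72.7 ± 8.50 CPM (SD, n = 5) in Prdm6-deficient DA against 108 ± 16.3 (n = 7) in control DA, and 70.3 ± 6.95 (n = 5) against 113 ± 16.2 (n = 6) in the aorta, with no overlap in either vessel. Counts of the floxed exons alone cannot be had from this table. CPM are counts scaled to a common library size by the TMM method. The smooth muscle markers (9 genes, among them Acta2 and Myh11) summed to between 8679 and 24673 CPM in every library, so each held vessel wall SMC. In bulk tissue, fewer cells of a type and less RNA per cell cannot be told apart.

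The 3 genes belong to unrelated families. Rergl encodes a small GTPase of the Ras superfamily that resembles Rerg, a growth-inhibiting protein first described as estrogen regulated. Chrna2 encodes an alpha subunit of the neuronal nicotinic acetylcholine receptors, the pentameric cation channels that open when acetylcholine or nicotine binds and that carry fast transmission at autonomic ganglia. Ppfia2 encodes liprin-α2, a scaffold that binds LAR-type receptor tyrosine phosphatases and helps to assemble the presynaptic active zone.

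Rergl (ENSMUSG00000092164.2) lies on the minus strand of mm10 at chr6:139492973-139501976, Chrna2 (ENSMUSG00000022041.10) on the plus strand at chr14:66135039-66152948, and Ppfia2 (ENSMUSG00000053825.15) on the plus strand at chr10:106470339-106935952. All 3 are protein-coding, and their values are sums over the exons of the gene. Their exons cover 958, 3787 and 10903 bases. The promoter windows, 250 bases before and 50 bases from the annotated start on, were taken from RefSeq on GRCm38.p6, the assembly of mm10, for the 2 of the 3 members with a window. They are shown because the members differ in the kind of start region they carry. Both strands were searched for the CArG box that binds SRF in SMC genes, the TEAD motif GGAATG, the AP-1 motif TGANTCA and the RBPJ motif TGGGAA, and the matches are in capitals.
Rergl promoter, chr6:139501860-139502159, minus strand: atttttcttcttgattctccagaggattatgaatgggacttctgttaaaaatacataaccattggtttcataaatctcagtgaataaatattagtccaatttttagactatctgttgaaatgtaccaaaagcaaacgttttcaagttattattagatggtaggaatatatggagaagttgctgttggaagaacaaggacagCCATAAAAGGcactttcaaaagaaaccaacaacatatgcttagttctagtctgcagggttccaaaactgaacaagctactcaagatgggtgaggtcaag
Ppfia2 promoter, chr10:106470060-106470359, plus strand: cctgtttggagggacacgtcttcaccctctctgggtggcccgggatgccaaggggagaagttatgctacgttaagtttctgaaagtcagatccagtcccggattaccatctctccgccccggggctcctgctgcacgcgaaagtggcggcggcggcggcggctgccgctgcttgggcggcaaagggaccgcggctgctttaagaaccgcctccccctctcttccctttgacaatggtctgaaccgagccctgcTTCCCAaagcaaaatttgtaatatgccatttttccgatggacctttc
The Rergl window held a CArG box from 49 to 40 bases before the RefSeq start, whose letters match on both strands. This start lies inside the gene coordinates given above, and so does the CArG box. The GC content of the window was 34.7%, with only 3.40% of all windows lower. A CArG box was found in 535 of 32851 windows of the same length (1.63%). The Ppfia2 window was richer in GC, at 58.3%, and held an RBPJ match on the minus strand, a motif found in 25.6% of all windows. The match ran from base 3 to base 8 by the RefSeq start, which lies before the start of the gene coordinates given above. The shares for the TEAD and AP-1 motifs were 14.7% and 7.81%. A match is a match of letters, and no binding was measured here.

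Rergl was all but undetected in the controls and present in every Prdm6-deficient library. In control DA it had 0 counts in 5 of 7 libraries, 1 count in replicate 7 and 3 counts in replicate 2. In Prdm6-deficient DA replicates 1, 2, 5, 6 and 7 it had 67, 131, 142, 97 and 90 counts, or 4.18, 7.44, 6.51, 5.58 and 4.42 CPM. Every Prdm6-deficient library thus stood far above every control library, and the pooled replicates 1 and 2 were the lowest and the highest of the 5. In control aorta it had 0 counts in 5 of 6 libraries and 1 count in replicate 3. In Prdm6-deficient aorta replicates 1 to 5 it had 163, 154, 174, 113 and 184 counts, or 8.64, 7.06, 8.04, 5.26 and 8.98 CPM. The groups did not overlap in the aorta either, and the Prdm6-deficient aorta libraries differed among themselves by 1.71-fold from lowest to highest. The 2 control libraries from the Cre-carrying embryo held 3 counts in the DA and 1 count in the aorta, both within the floor of 3 counts.

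The mean level of Rergl was 5.62 ± 1.38 CPM (SD, n = 5) in the DA of Prdm6-deficient embryos, and in their aorta it was 7.59 ± 1.49 CPM (SD, n = 5). Because no control library exceeded 3 counts, the folds are lower bounds against that floor in each control library, whose mean was 0.161 CPM in the DA and 0.147 CPM in the aorta. In Prdm6-deficient embryos, Rergl was at least 34.8-fold higher in the DA and at least 51.5-fold higher in the aorta. These bounds cover counting error only. Per kilobase of exon, the level in Prdm6-deficient vessels was 5.87 CPM in the DA and 7.93 CPM in the aorta, above 61.5% and 68.4% of tested genes on the same scale. A transcript near 0 in control vessels thus reached the middle of the range of expressed genes.

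Chrna2 was low but detected in all controls. In control DA it ranged from 0.0556 to 0.891 CPM with a median of 0.266 (1 to 16 counts, n = 7), and 2 of the 7 libraries held 3 counts or fewer. In Prdm6-deficient DA replicates 1, 2, 5, 6 and 7 it was 7.11, 6.70, 16.1, 9.83 and 3.63 CPM. The lowest Prdm6-deficient DA library was 4.07-fold above the highest control, and replicate 5 stood highest. In control aorta it ranged from 0.315 to 1.41 CPM with a median of 0.678 (7 to 28 counts, n = 6). In Prdm6-deficient aorta replicates 1 to 5 it was 13.0, 7.65, 19.4, 9.54 and 9.51 CPM. Here the lowest Prdm6-deficient library was 5.41-fold above the highest control, and replicate 3 stood highest. The mean rose from 0.375 ± 0.285 to 8.67 ± 4.69 CPM (SD) in the DA, a ratio of 23.1, and from 0.743 ± 0.436 to 11.8 ± 4.68 CPM in the aorta, a ratio of 15.9. The log2 fold change was 4.53 (SE 0.50) in the DA and 3.99 (SE 0.50) in the aorta. Its level per kilobase of exon was 2.29 CPM in Prdm6-deficient DA and 3.13 CPM in Prdm6-deficient aorta, below that of Rergl.

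Ppfia2 had the highest control level of the 3 in CPM. In control DA it ranged from 0.167 to 3.94 CPM with a median of 1.59 (n = 7), and only replicate 6 was at the floor, with 3 counts. In Prdm6-deficient DA replicates 1, 2, 5, 6 and 7 it was 29.4, 19.1, 36.7, 20.4 and 15.8 CPM. The lowest of these was 4.01-fold above the highest control library, replicate 5. In control aorta it ranged from 0.757 to 2.98 CPM with a median of 2.66 (n = 6). In Prdm6-deficient aorta replicates 1 to 5 it was 16.5, 12.2, 24.4, 12.6 and 23.8 CPM. The lowest of these was 4.09-fold above the highest control. The mean went from 1.76 ± 1.15 to 24.3 ± 8.58 CPM (SD) in the DA, a ratio of 13.8, and from 2.35 ± 0.859 to 17.9 ± 5.91 CPM in the aorta, a ratio of 7.62. The log2 fold change was 3.78 (SE 0.40) in the DA and 2.93 (SE 0.41) in the aorta. Per kilobase of exon, Ppfia2 reached 2.22 CPM in Prdm6-deficient DA and 1.64 CPM in Prdm6-deficient aorta, the lowest of the 3 members on that scale.

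**Figure D1:**
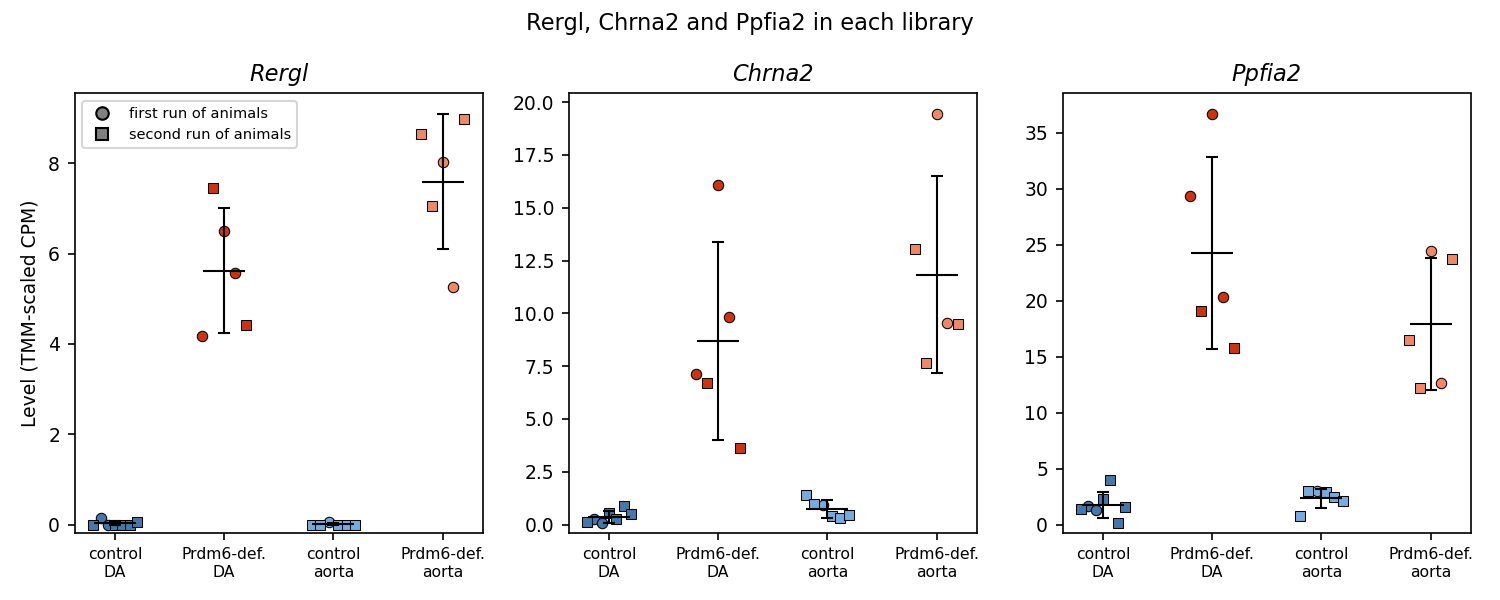
Level of Rergl, Chrna2 and Ppfia2 (TMM-scaled CPM, linear axes) in each of the 23 libraries by group, with circles for the first and squares for the second run of animals; horizontal bars are group means and vertical bars SDs, ended at 0 where the SD exceeds the mean. Every Prdm6-deficient library lies above every control library in both vessels for all 3 genes, and Prdm6-deficient DA replicate 5 (16.1 CPM of Chrna2) and aorta replicate 3 (19.4 CPM) stand highest for Chrna2.

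By the way they were chosen, all 3 members lay among the genes called higher in both vessels, a call that needed a log2 fold change above 0.5 and an edgeR adjusted p below 0.01, so their calls are no result. Over all tested genes, 2.61% were called higher and 2.82% lower in the DA, 1.63% higher and 0.826% lower in the aorta, and 0.705% (116 genes) higher in both. No overlap between groups, with the Prdm6-deficient libraries higher, was seen in 2.73% of tested genes in the DA and 3.92% in the aorta. Nothing is read from the members' place among these shares. By fitted log2 fold change, Rergl stood at rank 4 in the DA and 2 in the aorta, Chrna2 at 36 and 21, and Ppfia2 at 50 and 61, of 16463 genes. The ranks rest on the values that chose the members, so nothing is read from them either. In 22 genes the call was higher and the log2 fold change above 2 in both vessels, and in 6 genes the call was lower with a log2 fold change below -2 in both.

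**Figure D2:**
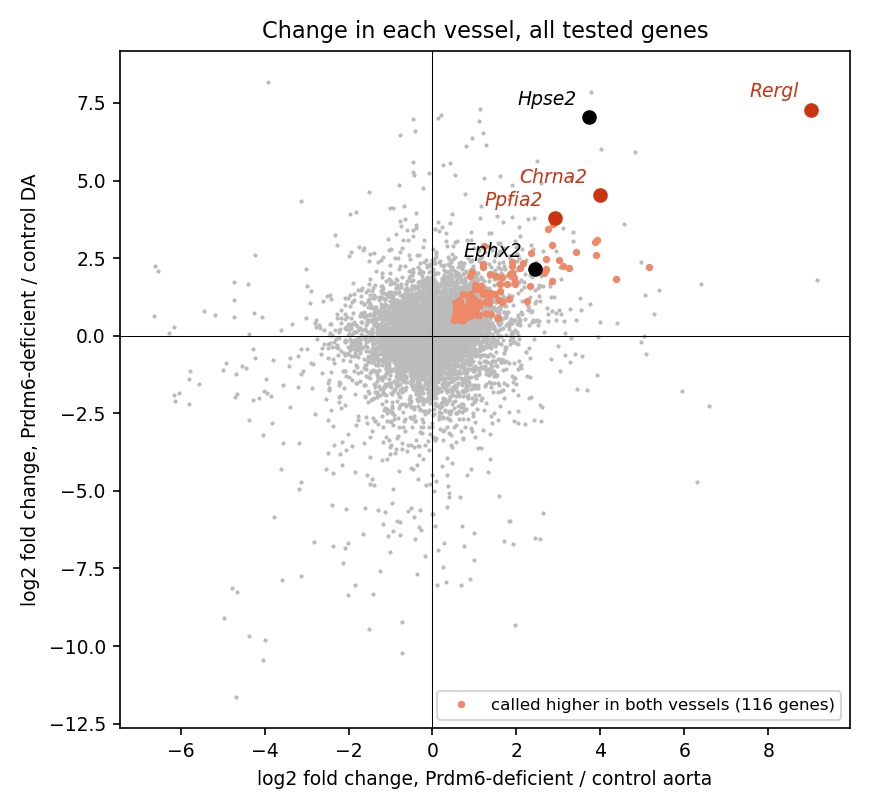
Log2 fold change of Prdm6-deficient against control in the aorta (horizontal) and the DA (vertical) for 16463 tested genes (grey), with the 116 genes called higher in both vessels in orange, the 3 members in red and Hpse2 and Ephx2 in black. Rergl lies at 9.03 and 7.27, fitted values that depend on the prior for a gene at 0 in most controls, Chrna2 at 3.99 and 4.53, and Ppfia2 at 2.93 and 3.78.

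Few other genes near the floor were called in the same way. Of 2174 tested genes with a mean below 1 CPM in both control groups, 3 were called higher in both vessels (0.0182% of all tested genes). These were Rergl and Chrna2, which were chosen for this pattern, and Hpse2. Rergl and Hpse2 passed the filter on low counts only because of their Prdm6-deficient libraries. Hpse2 encodes heparanase 2, a relative of heparanase without its heparan sulfate cleaving activity. The call can miss such genes. Chrna7, at 0.970 and 0.643 CPM in control DA and aorta, had log2 fold changes of 1.98 and 2.21 and was not called. How rare the pattern is was thus not shown. Hpse2 had at most 1 count in any control DA library and 11 to 137 counts in Prdm6-deficient DA. Its mean was 3.89 ± 2.61 CPM (SD, n = 5) there. In the aorta it averaged 0.287 ± 0.235 CPM in control and 3.90 ± 0.838 CPM in Prdm6-deficient libraries. Hpse2 was not called within the first run of animals alone in the DA, nor within either run alone in the aorta. Ordered by the smaller of both log2 fold changes, the 22 genes began with Rergl, Chrna2, Hpse2, the transcription factor Tox, the Tie2 ligand Angpt1, Ppfia2 and the homeobox gene Dlx1. Tox, just above the level of 1 CPM in controls, had 1.15 ± 0.599 CPM in control DA and 9.75 ± 4.71 in Prdm6-deficient DA, and 1.56 ± 0.764 and 23.8 ± 6.17 in the aorta.

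The level of each member in the DA and in the aorta was compared within a genotype. The choice of the members did not use this comparison, but it did use the levels in every group. Genes low in both control vessels and raised in both Prdm6-deficient ones were taken. Similar levels between the vessels may therefore in part follow from the choice. None of the 3 was called between Prdm6-deficient DA and Prdm6-deficient aorta, a comparison in which 0.267% of tested genes were called. The log2 difference, DA against aorta, was -0.43 for Rergl (95% interval -1.41 to 0.54, edgeR adjusted p = 0.875), -0.45 for Chrna2 (-1.37 to 0.47, edgeR adjusted p = 0.855) and 0.44 for Ppfia2 (-0.34 to 1.22, edgeR adjusted p = 0.817). The groups overlapped for all 3. Each interval reaches past a difference of 1 on the log2 scale, toward the aorta for Rergl and Chrna2 and toward the DA for Ppfia2. In the controls, where 3.15% of tested genes were called higher and 2.19% lower in the DA than in the aorta (5.35% in all), Chrna2 was lower in the DA by a log2 difference of -0.98 (SE 0.48, edgeR adjusted p = 0.231) and Ppfia2 by -0.42 (SE 0.38, edgeR adjusted p = 0.624), neither past the threshold. Rergl was at the floor in both control vessels, so no fold is given. The DA and aorta effects of the members stood side by side at 7.27 and 9.03 for Rergl, 4.53 and 3.99 for Chrna2, and 3.78 and 2.93 for Ppfia2, on the log2 scale, and their difference was not tested. Each vessel had its own control libraries, but several embryos gave both vessels.

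Among the Prdm6-deficient libraries the 3 members did not rank alike. Chrna2 varied most, with 4.43-fold between the lowest and highest DA library (CV 54.1%), against 2.32-fold for Ppfia2 (35.4%) and 1.78-fold for Rergl (24.6%). The embryo that gave Prdm6-deficient DA replicate 5 and aorta replicate 3 had the highest Chrna2 of its group in both vessels (16.1 and 19.4 CPM). It also had the highest Ppfia2 in both (36.7 and 24.4 CPM), while for Rergl its rank was 2 in the DA and 3 in the aorta. The embryo behind DA replicate 7 and aorta replicate 5 had the lowest Chrna2 in the DA (3.63 CPM) and rank 4 of 5 in the aorta (9.51 CPM). Its Rergl was the highest of the aorta group at 8.98 CPM and had rank 4 in the DA at 4.42 CPM. Over the 10 Prdm6-deficient libraries of both vessels, Pearson's r of log2 CPM was 0.57 between Rergl and Chrna2, 0.42 between Chrna2 and Ppfia2 and 0.01 between Rergl and Ppfia2. Over all 23 libraries these values were 0.93, 0.83 and 0.90, but there the points share the split between control and Prdm6-deficient groups. Some libraries of both vessels also share an embryo.

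The runs of animals were unequal between groups, with 3 Prdm6-deficient and 2 control DA libraries in the first run and 2 and 5 in the second. Chrna2 averaged 11.0 CPM in Prdm6-deficient DA of the first run and 5.17 CPM in that of the second, and 0.154 and 0.463 CPM in control DA. Its log2 fold change in the DA was accordingly 6.08 within the first run and 3.48 within the second. For Ppfia2 the within-run values in the DA were 4.28 and 3.22, and for Rergl 6.01 and 8.46. In the aorta the second run (3 Prdm6-deficient, 5 control) gave 3.83 for Chrna2, 2.97 for Ppfia2 and 10.34 for Rergl. The first run there has 1 control library, the one with Cre, and gave 3.96, 2.63 and 6.85. All 3 members were higher in Prdm6-deficient samples within each run in both vessels. This follows from the lack of overlap between the groups, so the runs are no separate test.

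The genes whose log2 CPM followed each member most closely over the 23 libraries had the same split between groups. For Rergl these were Ephx2 (r = 0.976), the glycogen primer gene Gyg (0.966), the parathyroid hormone receptor gene Pth1r (0.947), the Tie2 ligand gene Angpt2 (0.947) and the chemokine-scavenging receptor gene Ackr3 (0.947). For Chrna2 they were the transcription factor genes Tbx2 (0.945), Tox (0.943) and Ets1 (0.939), then Ephx2 (0.938) and Rergl (0.932). For Ppfia2 they were Tns3 (0.939), which encodes a tensin of focal adhesions, the guanine nucleotide exchange factor gene Dock10 (0.919), the collagen gene Col11a1 (0.919), the growth factor gene Gdf10 (0.909) and Hpse2 (0.904). Rergl thus stood among the nearest genes of Chrna2, whereas Ppfia2 shared none of its 5 with the others. By Spearman's rank correlation, 1, 1 and 0 of these genes stayed among the first 5 of Rergl, Chrna2 and Ppfia2, so the lists depend on the measure.

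Ephx2 was also the gene next to Chrna2 on the genome. It encodes soluble epoxide hydrolase, which breaks down the vasoactive epoxides of arachidonic acid. It lies on the opposite strand at chr14:66084374-66124500, 10539 bases from Chrna2, so that the starts of both genes face each other across the gap. Ephx2 ranged from 39.9 to 55.2 CPM with a median of 51.3 in control DA (n = 7) and from 160.9 to 281 CPM in Prdm6-deficient DA (n = 5). In the aorta it ranged from 41.9 to 66.3 CPM with a median of 55.6 in control (n = 6) and from 255 to 349 CPM in Prdm6-deficient libraries (n = 5). The groups were well apart in both vessels, with log2 fold changes of 2.14 ± 0.12 (SE; edgeR adjusted p = 8.9e-12) for the DA and 2.43 ± 0.13 (edgeR adjusted p = 1.6e-12) for the aorta, and it was called in every alternative fit in both.

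On the other side of Chrna2, 309 bases away, Ptk2b, which encodes a focal adhesion kinase relative, averaged 5.79 ± 3.26 CPM in control and 5.36 ± 1.47 in Prdm6-deficient DA, and 3.08 ± 0.741 and 2.36 ± 0.732 CPM in the aorta. It was not called in either vessel (edgeR adjusted p = 0.907 and 0.810). Of 14 other protein-coding genes within 500 kb of Chrna2, 10 were tested, and 1 was called higher and 1 lower in the DA and 1 higher and 0 lower in the aorta. The gene called lower was Scara5, a ferritin receptor gene 370213 bases away, at a log2 fold change of -1.76 in the DA and a value of -0.65 in the aorta that did not pass. The remaining neighbours, among them Clu at 147 and 178 CPM in control and Prdm6-deficient DA and Trim35 at 144 and 159 CPM, were not called.

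**Figure D3:**
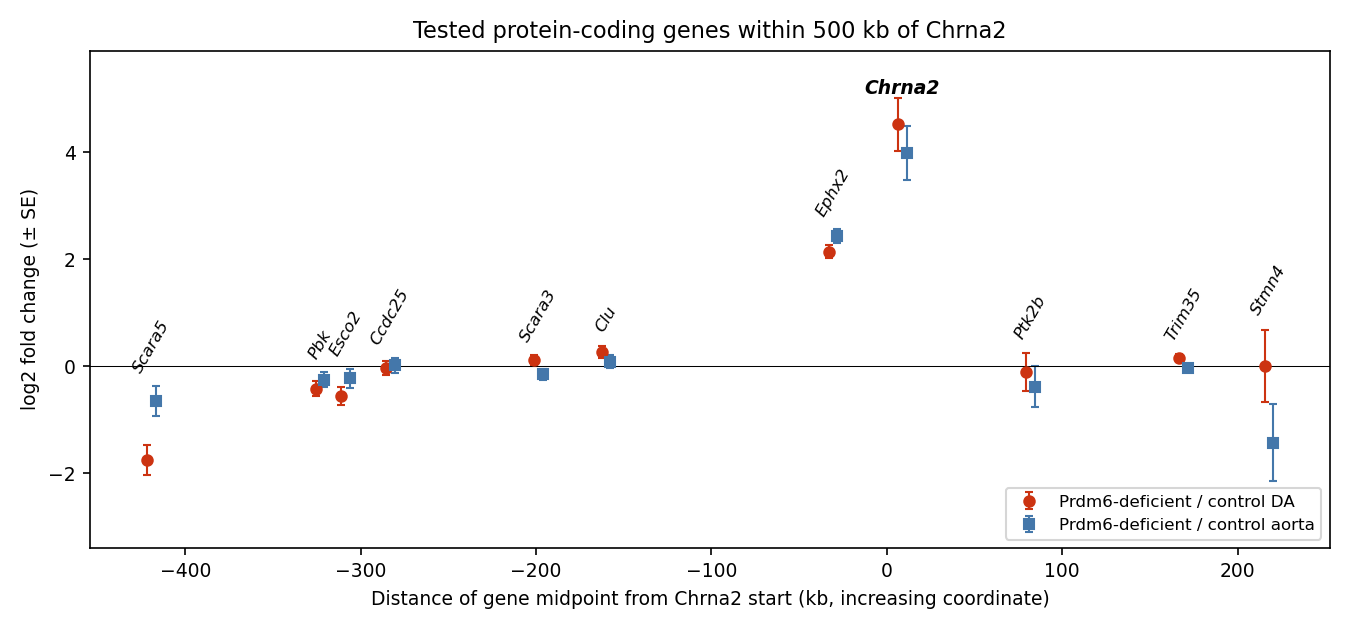
Log2 fold change (± SE) of Prdm6-deficient against control in the DA (circles) and aorta (squares) for Chrna2 and the 10 tested protein-coding genes within 500 kb, by the distance of each gene's midpoint from the Chrna2 start in kb. Ephx2 (2.14 and 2.43) and Chrna2 (4.53 and 3.99) lie well above 0 in both vessels, Scara5 lies at -1.76 in the DA, and the other genes were not called.

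The surroundings of the other members differed. Rergl stands alone, with Pik3c2g 85245 bases away, Plcz1 487697 bases away and Igbp1b 834429 bases away on the other side, and none of these 3 genes had a count in any library. For Ppfia2, the adjacent Lin7a, which encodes a partner of the CASK scaffold and lies 335734 bases away, averaged 0.239 CPM in control and 1.68 CPM in Prdm6-deficient DA (edgeR adjusted p = 0.0425) and 0.689 and 1.86 CPM in the aorta (edgeR adjusted p = 0.580), not called in either. On the other side, Ccdc59 was 622506 bases away and averaged 29.4 and 33.9 CPM in the DA, not called. Acss3 overlaps the end of Ppfia2 on the opposite strand and had at most 37 counts in any library.

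A noncoding gene on the opposite strand, C230021G24Rik, overlaps the start of Ppfia2. It averaged 0.139 ± 0.305 CPM in control and 1.78 ± 1.01 CPM in Prdm6-deficient DA, and 0.126 ± 0.163 and 3.10 ± 1.43 CPM in the aorta. The log2 fold changes of 3.59 ± 1.09 (SE; edgeR adjusted p = 0.0284) for the DA and 4.56 ± 1.19 (edgeR adjusted p = 0.0206) for the aorta fell short of the threshold of 0.01. No source gives strand-specific counting, so reads of C230021G24Rik and of the first bases of Ppfia2 cannot be told apart.

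The families of the 3 members were examined as lists of 79 genes, 62 of them tested. Without the members, 59 genes were left, of which 3 were called higher and 2 lower in the DA and 2 higher and 3 lower in the aorta, 8.47% in each vessel beside 5.43% and 2.45% of all tested genes. The median log2 fold change was 0.11 in the DA and 0.10 in the aorta, beside 0.01 and 0.00 over all tested genes. These counts describe lists that were drawn up with earlier results known, and within a single run of animals no more than 1 gene was called in each direction.

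Among the 15 tested Ras-like GTPases, Rergl aside, 1 was higher and 1 lower in the DA and 2 were lower in the aorta. Rrad, which encodes a GTPase that restrains L-type calcium channels, rose from 27.2 to 67.5 CPM in the DA (log2 fold change 1.31, SE 0.28, edgeR adjusted p = 0.0016), a call lost without the pooled samples and with only the 2 groups in the fit, while in the aorta it averaged 81.7 and 48.1 CPM and was not called. Rasl12 fell from 71.9 to 26.7 CPM in the DA (log2 fold change -1.43, SE 0.14, edgeR adjusted p = 6.2e-08). Rasd2 fell from 22.2 to 10.9 CPM in the aorta (log2 fold change -1.02) and Diras2 from 24.6 to 10.9 CPM (-1.17), although these calls were made in 15 and 19 of 23 fits that each left out 1 library. Rerg, the closest relative of Rergl on the list, averaged 14.9 ± 4.01 and 13.6 ± 5.19 CPM in control and Prdm6-deficient DA, a log2 difference of -0.13. In the aorta it averaged 8.43 ± 1.92 and 15.9 ± 4.99 CPM, a log2 difference of 0.92 (edgeR adjusted p = 0.0250) that did not pass.

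Of the 16 nicotinic receptor subunit genes, 6 were tested. Chrna2 was the one called, but it was chosen for its rise, so its call is no result. Chrna7, the subunit of the homomeric receptor, averaged 0.970 ± 0.790 CPM in control and 3.87 ± 3.01 in Prdm6-deficient DA, and 0.643 ± 0.578 and 2.98 ± 0.419 CPM in the aorta, with edgeR adjusted p = 0.129 and 0.196. Its groups did not overlap in the aorta, where the highest control library had 1.41 CPM and the lowest Prdm6-deficient one 2.49. The beta subunit genes that could pair with Chrna2 stayed low. Chrnb2 averaged 0.624 and 0.459 CPM in control and Prdm6-deficient DA and 0.850 and 0.333 CPM in the aorta, and Chrnb4 had at most 7 counts in any library. Chrnb1 averaged between 3.13 and 4.10 CPM in all groups, and Chrna4 between 0.628 and 1.07 CPM. Chrne averaged between 0.0287 and 0.471 CPM, and in the DA its log2 fold change of 3.50 had an SE of 1.42 (edgeR adjusted p = 0.119) and was within 1 SE of that of Chrna2. In the aorta the value for Chrne was 0.23 (SE 1.29). None of these 5 subunit genes that were tested was called in either vessel. Chrna6, Chrna9, Chrnd and Chrng had 0 counts in every library.

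Genes for the making, breakdown and receptors' partners of acetylcholine gave 2 calls shared by both vessels among 13 tested. Bche, which encodes butyrylcholinesterase, rose from 43.8 to 71.4 CPM in the DA (log2 fold change 0.70, SE 0.15, edgeR adjusted p = 0.0013) and from 52.6 to 137 CPM in the aorta (1.39, SE 0.15, edgeR adjusted p = 5.5e-07). The DA call was lost without the pooled samples. Its level differed between the Prdm6-deficient vessels, DA against aorta, by -0.95 (edgeR adjusted p = 0.0023). Lypd6, a Ly6 protein that binds nicotinic receptors, rose from 0.966 ± 0.731 to 5.41 ± 1.95 CPM in the DA (log2 fold change 2.48, edgeR adjusted p = 0.0069) and from 1.33 ± 0.637 to 8.68 ± 1.69 CPM in the aorta (2.70, edgeR adjusted p = 0.0099). The Lypd6 groups did not overlap, but the call was made in 15 of 23 fits without 1 library in the DA and in 5 of 23 in the aorta. Lynx1, a further Ly6 protein that damps nicotinic currents, fell in the aorta from 22.0 to 11.5 CPM (log2 fold change -0.93, edgeR adjusted p = 9.9e-05). In the DA it averaged 22.5 and 21.7 CPM and was not called. Chat, which encodes the enzyme that makes acetylcholine, had at most 1 count in any library, and the vesicular transporter gene Slc18a3 at most 16.

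All 6 liprin genes were tested. Ppfia2 was the one called, which again follows from how it was chosen. Ppfia1 and Ppfibp1, the liprins of most tissues, were far more abundant, at 66.1 to 74.9 and 97.9 to 105 CPM over the group means. Ppfibp2 averaged 6.71 and 12.5 CPM in control and Prdm6-deficient DA (edgeR adjusted p = 0.0427, not called). Ppfia3 averaged between 1.31 and 2.72 CPM and Ppfia4 between 4.67 and 6.58 CPM, with no call. Among 22 tested partners of the liprins and active zone scaffolds, the 1 call was Unc13c, a vesicle priming factor gene that fell from 10.3 to 1.10 CPM in the DA (log2 fold change -3.23, SE 0.57, edgeR adjusted p = 2.2e-04).

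**Figure D4:**
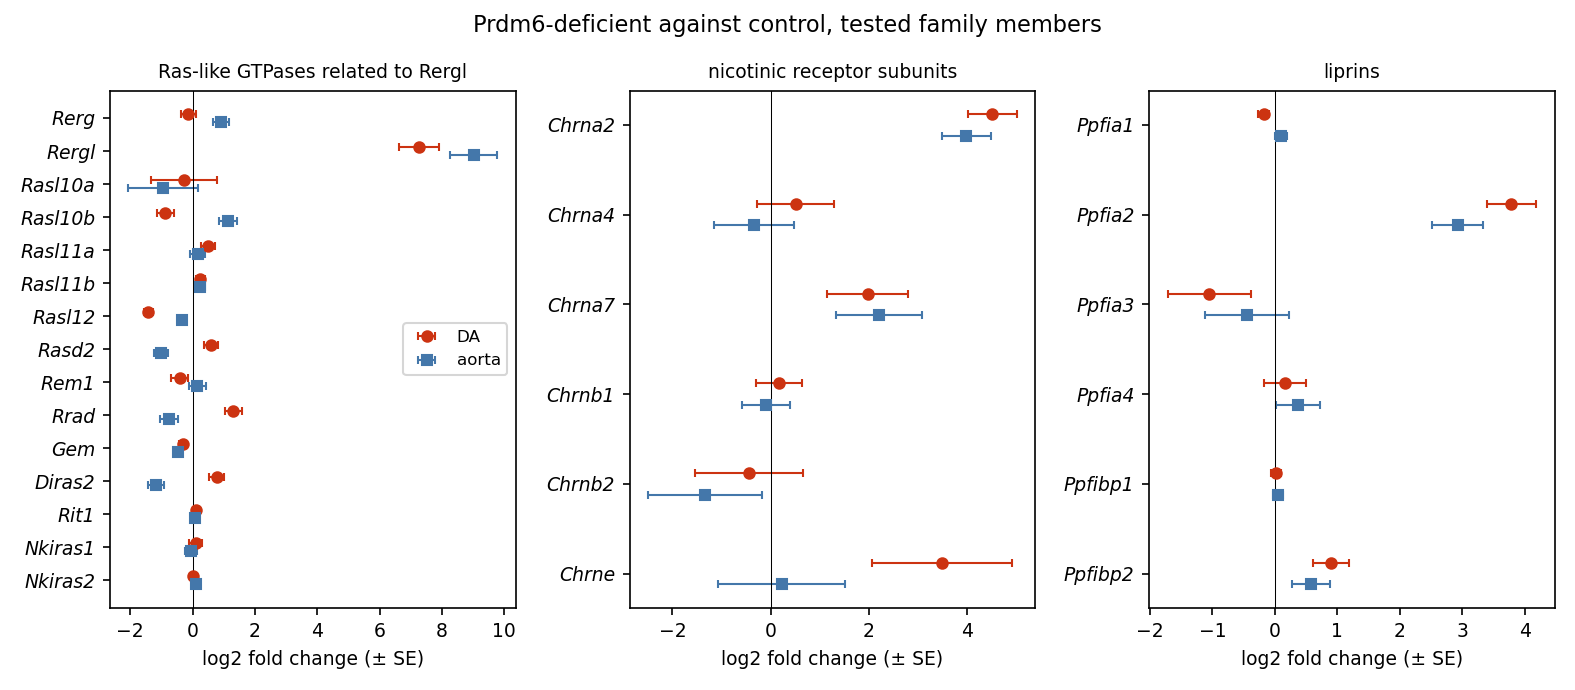
Log2 fold change (± SE) of Prdm6-deficient against control in the DA (circles) and aorta (squares) for the tested Ras-like GTPases, nicotinic receptor subunits and liprins, each panel with its own scale. Rergl (7.27 and 9.03), Chrna2 (4.53 and 3.99) and Ppfia2 (3.78 and 2.93) have the highest values of their panels, but were chosen for their rise. Chrne (3.50, SE 1.42) lies within 1 SE of Chrna2 in the DA. Rrad, Rasl12, Rasd2 and Diras2 were the other genes called.

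Because Chrna2 and Ppfia2 are best known from neurons, markers of the cell types that the vessel could hold were read beside them. The 13 autonomic neuron markers summed to 28.3 to 52.0 CPM in control DA, 38.0 to 76.1 in Prdm6-deficient DA, 42.7 to 62.0 in control aorta and 60.4 to 106 in Prdm6-deficient aorta. Of the 7 tested, 1 was called higher, in both vessels, the RNA-binding protein gene Elavl4, which rose from 1.39 to 7.58 CPM in the DA and from 4.66 to 37.6 CPM in the aorta. The defining markers were near 0, with group means of at most 0.798 CPM for Th, 0.231 for Dbh and 0.269 for Phox2a, and Dbh was at 0 counts in every control aorta library. The 8 Schwann cell markers summed to 24.4 to 239 CPM in control DA, 70.8 to 150.9 in Prdm6-deficient DA, 20.6 to 38.1 in control aorta and 22.4 to 82.4 in Prdm6-deficient aorta, and 0 of 8 were called by edgeR. The lowest adjusted p-values (edgeR) were 0.0362 for Sox10 and 0.0416 for Foxd3, both in the DA. The median log2 fold change of the 8 was 1.07 in the DA and 0.94 in the aorta, beside 0.01 and -0.001 over all tested genes. Their median sums were 39.3 CPM in control and 83.2 CPM in Prdm6-deficient DA, and 32.8 and 45.4 CPM in the aorta. The part of these cell types in the levels of Rergl, Chrna2 and Ppfia2 was not tested.

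Markers of other cell types gave calls in both vessels. In the DA, 7 of 9 smooth muscle markers were called lower, among them Myh11 (log2 fold change -1.90) and Cnn1 (-1.65), while in the aorta 0 were called lower and 1 higher, Mylk (0.65). Melanocyte markers (4 of 6) and adipocyte markers (3 of 6 tested) were called lower in the DA and none in the aorta. Of 8 endothelial markers, 1 was called higher in the DA and 3 in the aorta. Of 7 pericyte markers, 2 were called higher and 2 lower in the DA, and 1 each way in the aorta. Of 7 fibroblast markers, 1 was called each way in each vessel, and Lum was the one called higher in both. For macrophage and cardiomyocyte markers 0 were called in either vessel, and for skeletal muscle 1, Ckm, was lower in the DA. The members were higher in both vessels, and whether these shifts bear on them was not tested.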

How the data were processed

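RNA-Seq libraries from DA and ascending aorta were made with the NEBNext Ultra II kit. The authors filtered reads on base quality (at least 20 over 90% of bases), aligned them to mm10 with STAR, and deposited RSEM expected counts per gene, not scaled for library size or gene length. The study calls its GENCODE annotation version 20, and versions of STAR and RSEM are not given in the sources used here. Of 24 labelled samples 23 were used, and replicate 4 of the Prdm6-deficient DA was not analysed here. Groups and replicates were taken from the sample labels.

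Expected counts (7.71% of them not whole) were rounded and analysed in edgeR 4.0.16 (R 4.3.3) with filterByExpr, TMM scaling, 1 mean per vessel and genotype and the quasi-likelihood test over 16463 genes. Genes were called where the log2 fold change was beyond 0.5 and the Benjamini-Hochberg adjusted p was below 0.01. Coordinates and exon lengths are from GENCODE M21 and promoters from RefSeq. The procedure was tested on simulated data. Libraries of 1 group differed by a chi-square of at least 15.6 per gene, so none was a repeat deposit. CPM values are TMM-scaled, 3 counts were taken as the floor, and values after ± are SDs. The labels do not say that samples of 1 group came from separate litters, so p-values measure the spread between these samples. Tables were made with pandas 2.3.3 and plots with matplotlib 3.10.9.

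The members and the gene lists were chosen with earlier results of these data known. Named genes are the members, the family genes called in either vessel with the remaining tested nicotinic subunits, liprins and Rerg, the 5 genes most correlated with each member, the adjacent protein-coding genes, and up to 10 genes below 1 CPM in both control groups that were called higher in both vessels. Marker genes, further family genes, C230021G24Rik, the genes near Chrna2 and the genes above 4-fold in both vessels were named in addition, after their values were seen. Alternatives were RLE and upper-quartile scaling, no filter on low counts, DESeq2 1.42.0, limma-voom (limma 3.58.1), only the 2 groups compared, each library left out, no pooled samples, no controls with Cre, the animal run as a covariate, replicate and animal blocks, and, chosen after seeing the data, fits within each run.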

Additional observations from a re-analysis of the deposited data

Results flagged for a closer look

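In the 12 groups of values checked (3 genes in 4 groups), a library far from the others was found in 2. Chance flags about 1 in 20 groups, a rate that need not hold where most counts are 0, as in both groups flagged. Rergl in control DA replicate 2, at 0.152 CPM (3 counts), stood apart from the other 6 control DA libraries, which had 0 or 1 count. Rergl in control aorta replicate 3, at 0.0513 CPM (1 count), stood apart from the other control aorta libraries, all at 0. Both libraries came from the same embryo, which carried Wnt1Cre with wild-type PRDM6, and both values are within the floor of 3 counts.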

How the results depend on the processing

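Depth limits Rergl in controls, where fitted folds depend on the prior, and 5 to 7 libraries a group limit the vessel comparisons. The contrasts that chose the members are described by their range alone. With 1 library left out, the log2 fold change ranged from 7.07 to 8.53 for Rergl in the DA and 8.85 to 10.22 in the aorta, from 4.18 to 4.90 and 3.74 to 4.27 for Chrna2, and from 3.58 to 4.12 and 2.75 to 3.04 for Ppfia2. Both upper ends for Rergl came without the Cre-carrying control (DA replicate 2, aorta replicate 3), which gave the highest control counts; without both libraries they were 8.53 and 10.22, and with limma-voom the aorta value was 7.98. Within the first and second runs the values were 6.01 and 8.46 for Rergl in the DA, 6.85 and 10.34 in the aorta, and 6.08 and 3.48 for Chrna2 in the DA.

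Between the Prdm6-deficient vessels no member was called in any alternative (adjusted p from 0.492 up to 1 for Rergl, 0.535 up to 1 for Chrna2 and 0.475 up to 1 for Ppfia2), and the leave-one-out ranges were -0.56 to -0.34, -0.80 to -0.20 and 0.24 to 0.58. The Ppfia2 difference changed sign within the second run, to -0.0028. In the controls these ranges were -1.36 to -0.70 for Chrna2 and -0.76 to -0.22 for Ppfia2.

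The number of genes called in the DA, 894, was 340 and 392 within the first and second runs and 783 to 948 with 1 library left out. In the aorta, 404, it was 702 with only the 2 groups compared, 22 and 219 within the runs and 325 to 441. Between the Prdm6-deficient vessels, 44, it was 137 with DESeq2, 83 with only the 2 groups, 15 without the pooled samples, 16 with the replicate block, 11 with the animal as a block, 2 and 6 within the runs and 22 to 58 with 1 library left out (below 30 without Prdm6-deficient DA replicate 1 or 2 or aorta replicate 1, 2, 4 or 5). Between the control vessels, 880, it was 98 within the first run and 775 to 963 with 1 library left out. For the family genes, the 3 called higher in the DA became 1 with only the 2 groups, 1 without the pooled samples and 0 and 1 within the runs (2 to 4 with 1 library left out), and the 2 called lower became 1 and 1 within the runs (2 to 3). The 2 called higher in the aorta became 1 with upper-quartile scaling, without the pooled samples, without the controls with Cre and with the replicate block, 4 with DESeq2 and with only the 2 groups, and 0 and 1 within the runs (1 to 3). The 3 called lower became 5 with only the 2 groups, 1 with the replicate block and 0 and 1 within the runs (1 to 4, with 1 without control aorta replicate 1 or 2 or Prdm6-deficient aorta replicate 2). The cause was not tested. The replicate numbers matched embryos in some cases and not in others. Control DA and control aorta replicates 1 shared an embryo, as did replicates 4. Control DA replicate 2 instead shared its embryo with control aorta replicate 3. Same-numbered libraries deviated from their group means with r from -0.054 to 0.133. For control replicates 1 and 4, from the same embryo in both vessels, r was 0.009 and 0.011. These values therefore cannot show which samples are paired.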
